A study of Homo sapiens with 8 samples.

Results

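The Krueppel-like factors analysed here are 10 genes (KLF2, KLF3, KLF4, KLF5, KLF6, KLF9, KLF10, KLF11, KLF13 and KLF15), taken by symbol from the 20531 genes of the deposited tables. They were read in 8 libraries of poly(A) RNA from SKBR-3 and BT474m1, established human breast cancer lines that carry an amplified HER2 gene and differ in that BT474m1 alone has the estrogen and progesterone receptors. Each line was grown in RPMI with serum and kept for 48 h, per the labels, in DMSO as vehicle, in 300 nM lapatinib, which inhibits the kinases EGFR and HER2, in 300 nM JQ1, which displaces BET bromodomain proteins from acetylated chromatin, or in 300 nM of each (called both drugs here). The study states the same time for the SKBR-3 reads with DMSO and lapatinib, while its methods text gives a shorter exposure for cell lines. Each of the 8 groups was 1 library, so changes within a line were not tested. A test over both lines, in which each line gives 1 value per treatment, is reported after the single genes.

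Krueppel-like factors are transcription factors that carry a run of zinc fingers at the C-terminal end and bind GC-rich and CACCC elements in promoters and enhancers. They differ in the rest of the protein. KLF2, KLF4, KLF5 and KLF6 mostly recruit acetyltransferases and activate genes, KLF3 recruits the CtBP corepressors, and KLF9, KLF10, KLF11 and KLF13 recruit the Sin3A corepressor. In epithelia the family is known for its part in the balance between proliferation and differentiation, and several members are early response genes whose short-lived transcripts follow kinase, hormone or TGF-beta signals.

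The promoters of 4 members are shown: KLF2 and KLF6, which were highest with JQ1 in both lines, and KLF4 and KLF15, which with KLF2 had the widest ranges over the 8 libraries. The 250 bases before the first start of each gene are given from RefSeq on GRCh38.p14, 5′ to 3′ on the strand of the gene. KLF2 lies on the plus strand (chr19:16324576-16324825), and KLF4 (chr9:107489770-107490019), KLF6 (chr10:3785210-3785459) and KLF15 (chr3:126357409-126357658) lie on the minus strand. Capitals mark GGGCGG, the GC box, on either strand and the consensus of the MEF2 factors.
KLF2: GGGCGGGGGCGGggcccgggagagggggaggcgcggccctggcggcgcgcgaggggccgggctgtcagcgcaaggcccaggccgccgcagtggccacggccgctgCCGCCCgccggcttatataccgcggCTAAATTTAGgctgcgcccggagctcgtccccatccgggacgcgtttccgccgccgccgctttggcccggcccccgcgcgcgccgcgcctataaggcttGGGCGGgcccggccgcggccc
KLF4: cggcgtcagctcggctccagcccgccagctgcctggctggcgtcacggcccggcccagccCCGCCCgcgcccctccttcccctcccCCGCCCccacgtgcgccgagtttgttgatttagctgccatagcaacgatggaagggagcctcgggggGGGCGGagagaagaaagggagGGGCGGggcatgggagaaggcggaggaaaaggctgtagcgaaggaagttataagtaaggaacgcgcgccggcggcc
KLF6: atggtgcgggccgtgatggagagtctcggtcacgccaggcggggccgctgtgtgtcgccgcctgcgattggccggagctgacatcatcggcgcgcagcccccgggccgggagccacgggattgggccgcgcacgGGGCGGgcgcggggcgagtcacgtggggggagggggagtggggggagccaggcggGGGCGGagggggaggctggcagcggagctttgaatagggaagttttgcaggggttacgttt
KLF15: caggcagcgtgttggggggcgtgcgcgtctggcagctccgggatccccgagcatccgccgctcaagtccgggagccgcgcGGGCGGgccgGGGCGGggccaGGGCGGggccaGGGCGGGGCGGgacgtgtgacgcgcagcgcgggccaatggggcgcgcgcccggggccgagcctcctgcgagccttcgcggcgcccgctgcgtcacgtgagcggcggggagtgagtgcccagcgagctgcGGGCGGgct
The RefSeq table held 10 promoters of 8 members, and neither KLF3 nor KLF10. The GC box was found in 8 of the 10, among them both promoters of KLF11, and in 42.6% of the 35116 promoters of the table. Those 8 held 69.2% to 80.4% G and C, where the median of all promoters was 58%. The first promoter of KLF5 and that of KLF9, without the box, held 40.8% and 32.4%. The share of all promoters is not matched for this content. The MEF2 consensus, searched after the KLF2 sequence had been read, since MEF2 factors are known activators of KLF2 and KLF4, was found in the promoter of KLF2 alone among these 10, 120 bases before the start, and in 2.80% of all promoters. Its form there, CTAAATTTAG, was found in 0.0570% of all promoters. This string of 10 bases was taken from the KLF2 promoter itself, so its share does not show how unusual that promoter is. CACCC was found in 4 of the 10 and in 54.7% of all promoters. Neither GTAAACA nor GTCAACA, forms of the forkhead element, was found in the 10, against 2.98% and 1.95% of all promoters. Both strands were searched for each motif. GC boxes overlapped each other in 1 of the 10 promoters, and none overlapped the MEF2 consensus. A match describes the letters of this window and not a bound site.

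Levels are given as normalised read counts, in which the authors set the upper quartile of each library to 1000. The depth ran from 21420113 to 34112379 reads on genes, and 1 read was worth 0.471 to 0.766 units. Of the 10 genes, 9 stood on at least 62 reads in every library, and KLF15 stood on 1 to 81. Changes are differences of log2(value + 1) and are given with a 95% interval that covers counting error only. A gene was counted as changed, and is said to have risen or fallen, at a change of 2-fold or more, and the share of the 14429 genes kept that changed as much is given as the background. Of the markers of the lines, ERBB2 was 94678 or higher in the 8 libraries, ESR1 and PGR were 16.9 or lower in SKBR-3 and at least 189.9 in BT474m1, and PTPRC and PECAM1, markers of leukocytes and endothelium, were 3.38 or lower. GRB7, EPCAM, KRT8 and KRT18, further markers of HER2-amplified breast epithelium, were at least 5154, 3300, 24517 and 10734 in the 8 libraries. CDH1, the remaining epithelial marker, was 15.1 or lower in SKBR-3 and at least 19413.5 in BT474m1. VIM stood at 2.06 or lower in SKBR-3 and at 204 to 657.2 in BT474m1, and COL1A1 at 24.1 to 123.8 and 337 to 1253, and their part in the results was not tested. In bulk RNA a change in the share of cells that express a gene and a change in its level per cell cannot be told apart.

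All 10 genes passed the filter of 10 units in 1 library. KLF15 did so only through the 4 libraries in which it was high, so its presence in a count of changed genes is partly set by the filter.

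**Figure D1:**
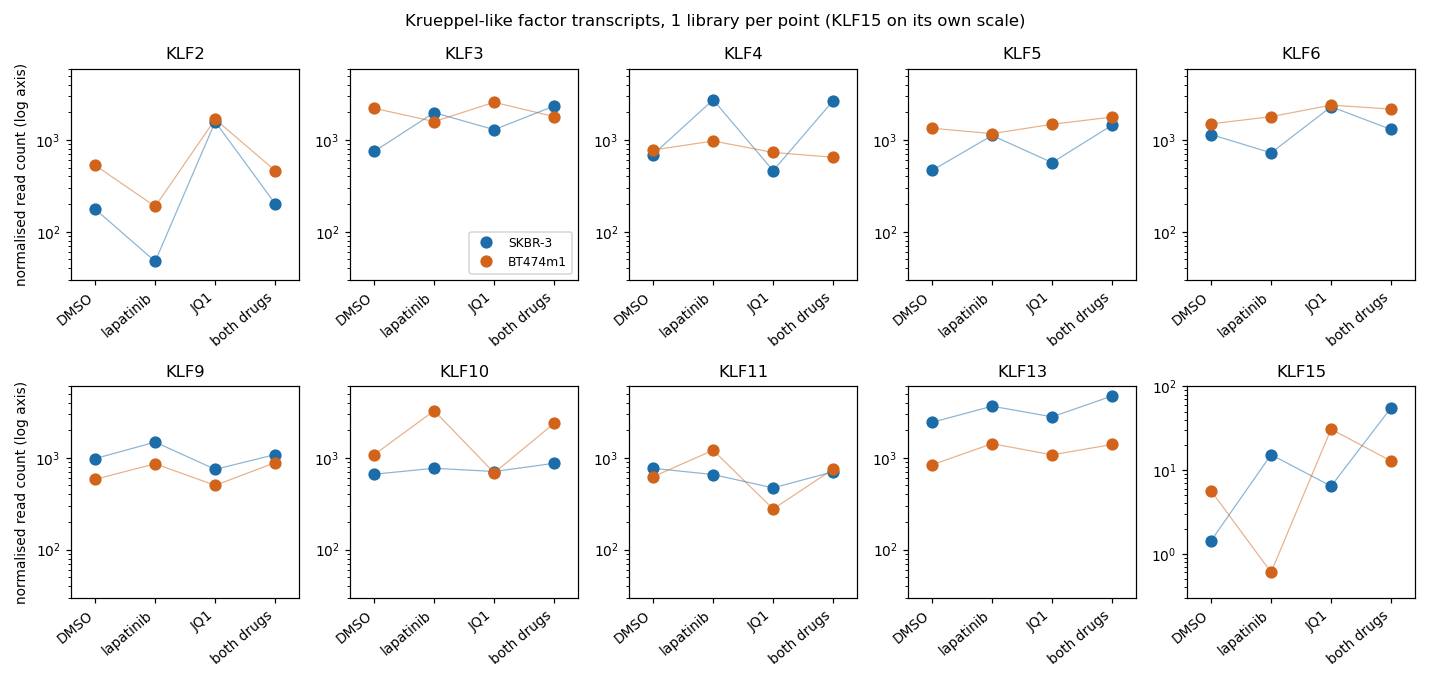
Normalised read count (log axis) of each of the 10 factors in the 4 treatments of SKBR-3 (blue) and BT474m1 (orange), 1 library per point, with thin lines that join the treatments of a line. KLF2 is lowest with lapatinib and highest with JQ1 in both lines, KLF4 is high with lapatinib and both drugs in SKBR-3 alone, and KLF10 in BT474m1 alone.

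KLF2 (Entrez 10365; GRCh38.p14 chromosome 19, 16324826 to 16328685), known as a factor of cell quiescence and of the vascular endothelium, moved in opposite directions with the single drugs, and did so in both lines. In SKBR-3 it stood at 176.1 under DMSO, 47.5 under lapatinib, 1578 under JQ1 and 201.5 under both drugs. In BT474m1 it stood at 529.5, 188.6, 1680 and 463 in the same order. The library with lapatinib was the lowest and that with JQ1 the highest in each line, and the libraries with both drugs lay near those with DMSO. KLF2 was the only one of the 10 genes with the same lowest and the same highest treatment in both lines, a pattern held by 27.4% of all genes kept. JQ1 raised it 8.96-fold in SKBR-3, by 3.16 (2.97 to 3.36) on the log2 scale, and 3.17-fold in BT474m1, by 1.66 (1.57 to 1.76). Of all genes kept, 0.201% stood higher than KLF2 in this contrast in SKBR-3 and 1.48% in BT474m1. Under lapatinib KLF2 fell in SKBR-3, with a log2 change of -1.87 (-2.32 to -1.48), and in BT474m1, with one of -1.48 (-1.68 to -1.31). The rise with JQ1 was larger in SKBR-3, which began lower, and with JQ1 the lines came to nearly the same level, 0.09 (0.02 to 0.17) apart on the log2 scale against 1.58 (1.39 to 1.79) with DMSO.

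With both drugs KLF2 was close to its level with DMSO, with changes of 0.19 (-0.05 to 0.45) in SKBR-3 and -0.19 (-0.33 to -0.06) in BT474m1. Compared with lapatinib alone, both drugs raised KLF2 by 2.06 (1.69 to 2.51) and 1.29 (1.11 to 1.49). Compared with JQ1 alone they lowered it, with changes of -2.96 (-3.15 to -2.79) and -1.86 (-1.97 to -1.75). In SKBR-3 the sum of the single changes was 1.29, and the change with both drugs was below it by -1.09, with a counting standard error of 0.224. This departure was -0.98 with equal totals, under 2-fold. In BT474m1 the departure was -0.37, with a standard error of 0.108.

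KLF6 (Entrez 1316; chromosome 10, 3775996 to 3785209), an early response gene and a known activator of CDKN1A, was the member whose profile lay closest to that of KLF2. In SKBR-3 it stood at 1147 under DMSO, 723.6 under lapatinib, 2301 under JQ1 and 1301 under both drugs, and in BT474m1 at 1499, 1794, 2399 and 2170. The library with JQ1 was the highest in both lines. JQ1 raised KLF6 by 1.003 (0.92 to 1.09) in SKBR-3, just past the threshold, and this was 0.9975 with a pseudocount of 10 and 0.86 with equal totals, both under it. In BT474m1 the change was 0.68 (0.61 to 0.74). With lapatinib the change was -0.66 (-0.78 to -0.55) in SKBR-3 and 0.26 (0.19 to 0.33) in BT474m1.

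KLF4 (Entrez 9314; chromosome 9, 107484852 to 107489769), a factor of epithelial differentiation and of reprogramming to pluripotency, rose with lapatinib in SKBR-3 and kept that level when JQ1 was added. It stood at 694.3 under DMSO, 2740 under lapatinib, 462.6 under JQ1 and 2679 under both drugs in SKBR-3, and at 777.5, 974.1, 730.9 and 647.8 in BT474m1. The SKBR-3 libraries with lapatinib thus lay far above the other 6, which spanned 462.6 to 974.1. In SKBR-3 lapatinib raised KLF4 3.95-fold, by 1.98 (1.88 to 2.08). The change when JQ1 was added to lapatinib was -0.03 (-0.10 to 0.03). In BT474m1 the change with lapatinib was 0.32 (0.23 to 0.43), and adding JQ1 changed it by -0.59 (-0.70 to -0.48). The lines differed by 0.16 (0.05 to 0.28) with DMSO and by -2.05 (-2.15 to -1.95), with BT474m1 lower, with both drugs.

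KLF5 (Entrez 688; chromosome 13, 73054976 to 73077538), a factor of proliferating epithelium, stood at 466 under DMSO, 1119 under lapatinib, 567 under JQ1 and 1452 under both drugs in SKBR-3. In BT474m1 it stood at 1342, 1172, 1483 and 1777. Lapatinib raised it by 1.26 (1.13 to 1.40) in SKBR-3, where both drugs raised it by 1.64 (1.51 to 1.77) against DMSO. In BT474m1 the change with lapatinib was -0.19 (-0.28 to -0.11) and that with both drugs 0.40 (0.33 to 0.48). The lines, apart by 1.52 (1.40 to 1.65) with DMSO, were within 0.07 (-0.03 to 0.17) with lapatinib.

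KLF3 (Entrez 51274; chromosome 4, 38664199 to 38701517), the repressor of the set that works through CtBP, followed a course close to that of KLF5. In SKBR-3 it stood at 749.4 under DMSO, 1986 under lapatinib, 1295 under JQ1 and 2344 under both drugs, and in BT474m1 at 2214, 1587, 2574 and 1797. Each of the 3 treatments with drug lay above DMSO in SKBR-3, whereas in BT474m1 both libraries with lapatinib lay below it. Lapatinib raised KLF3 by 1.40 (1.30 to 1.51) in SKBR-3 and both drugs by 1.64 (1.55 to 1.75). In BT474m1 the changes were -0.48 (-0.55 to -0.41) and -0.30 (-0.37 to -0.23). JQ1 alone gave 0.79 (0.68 to 0.90) and 0.22 (0.16 to 0.27). KLF3 was the only member whose read counts were not whole numbers, so part of its reads was divided between genes or copies. It overlaps an antisense RNA, KLF3-AS1, and KLF4 and KLF11 each overlap an unnamed long noncoding RNA on the opposite strand. It is uncertain whether the counting used strand, so reads of these RNAs could not be told apart from those of the members. KLF13 holds a pseudogene, UBE2CP4, on its own strand.

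**Figure D2:**
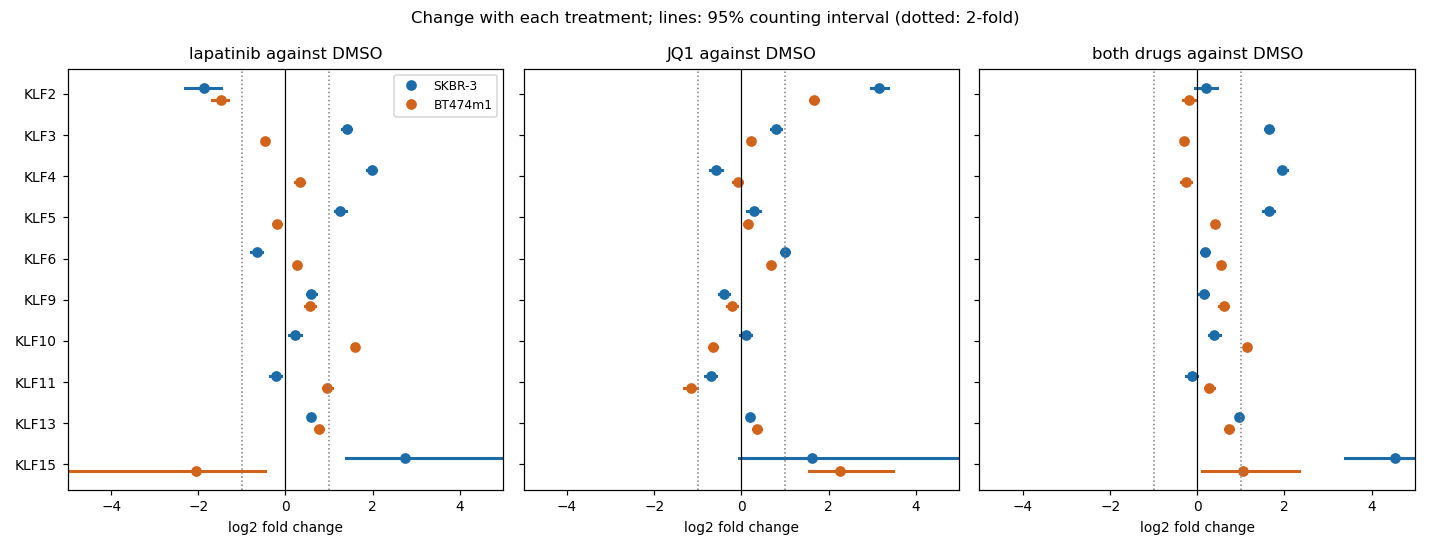
Log2 fold change against DMSO (horizontal axis) of the 10 factors with lapatinib, JQ1 and both drugs in SKBR-3 (blue) and BT474m1 (orange), with the 95% counting interval as a line and dotted lines at 2-fold. KLF2 lies left of 0 with lapatinib and right of 0 with JQ1 in both lines, and intervals of KLF15, which had few reads, run past the axis.

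KLF10 and KLF11, first known as TGF-beta inducible early genes, responded in BT474m1. KLF10 (Entrez 7071; chromosome 8, 102648784 to 102655725) stood in BT474m1 at 1082 under DMSO, 3266 under lapatinib, 686.5 under JQ1 and 2384 under both drugs. In SKBR-3 it stood at 663.6, 770.3, 710.1 and 872.2. Lapatinib raised it 3.02-fold in BT474m1, by 1.59 (1.52 to 1.67), against 0.21 (0.08 to 0.35) in SKBR-3. With both drugs KLF10 in BT474m1 was still above DMSO by 1.14 (1.07 to 1.21), and below lapatinib alone by -0.45 (-0.51 to -0.40).

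KLF11 (Entrez 8462; chromosome 2, 10043550 to 10054836) stood in BT474m1 at 622.8 under DMSO, 1211 under lapatinib, 276.8 under JQ1 and 755.1 under both drugs, and in SKBR-3 at 769.5, 657.7, 471 and 705.8. The library with JQ1 was the lowest in both lines. KLF11 was the only member that fell with JQ1, and did so in BT474m1, with a change of -1.17 (-1.31 to -1.03). In SKBR-3 the change was -0.71 (-0.85 to -0.57). Lapatinib gave 0.96 (0.86 to 1.06) in BT474m1, just under the threshold, and -0.23 (-0.36 to -0.10) in SKBR-3. Adding lapatinib to JQ1 raised KLF11 by 1.44 (1.31 to 1.59) and KLF10 by 1.79 (1.71 to 1.88) in BT474m1, against 0.58 (0.45 to 0.72) and 0.30 (0.18 to 0.41) in SKBR-3.

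KLF9 and KLF13, also partners of Sin3A, stayed under 2-fold against DMSO with every treatment, and their changes with lapatinib had the same direction in both lines. KLF9 (Entrez 687; chromosome 9, 70384604 to 70414657), induced by steroid hormones and a partner of the progesterone receptor, stood at 982.1 under DMSO, 1485 under lapatinib, 749.4 under JQ1 and 1087 under both drugs in SKBR-3. In BT474m1 it stood at 584.2, 861.4, 501.9 and 887.5. The change with lapatinib was 0.60 (0.50 to 0.70) in SKBR-3 and 0.56 (0.45 to 0.67) in BT474m1. JQ1 gave the lowest library of each line, with changes of -0.39 (-0.50 to -0.28) and -0.22 (-0.34 to -0.10).

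KLF13 (Entrez 51621; chromosome 15, 31326835 to 31435665) was lower in BT474m1 than in SKBR-3 with each treatment. It stood at 2440 under DMSO, 3655 under lapatinib, 2801 under JQ1 and 4725 under both drugs in SKBR-3, and at 840.2, 1428, 1079 and 1399 in BT474m1. The difference was -1.54 (-1.62 to -1.46) with DMSO, and -1.35 to -1.76 over the 4 treatments. Of all genes kept, 42.4% to 48.6% were at least 2-fold apart in either direction with each treatment. Each drug library lay above DMSO in both lines. The changes in SKBR-3 were 0.58 with lapatinib, 0.20 with JQ1 and 0.95 (0.89 to 1.01) with both drugs, and the last was 1.10 with scaling by the median of ratios. In BT474m1 they were 0.76, 0.36 and 0.73.

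KLF15 (Entrez 28999; chromosome 3, 126288125 to 126357408), a glucocorticoid-induced regulator of amino acid metabolism, was scarce throughout. It had 2 reads under DMSO, 20 under lapatinib, 10 under JQ1 and 81 under both drugs in SKBR-3, and 12, 1, 64 and 22 in BT474m1. Its normalised counts spanned 1.43 to 55.7 in SKBR-3, and 0.602 to 30.9 in BT474m1. Both drugs against DMSO gave a ratio of 38.9 (10.4 to 327) in SKBR-3 and 2.27 (1.07 to 5.03) in BT474m1. JQ1 gave 4.50 (0.959 to 42.2) and 5.47 (2.92 to 11.1). With lapatinib the ratio was 10.7 (2.60 to 94.4) in SKBR-3, and in BT474m1, with 1 read left, it was 0.106 (0.0025 to 0.720).

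Counted over the set, lapatinib raised 4 of the 10 members at least 2-fold in SKBR-3 (KLF3, KLF4, KLF5 and KLF15), against 11.1% of all genes kept, and lowered KLF2 alone, against 9.44%. In BT474m1 it raised KLF10 alone, against 14%, and lowered KLF2 and KLF15, against 8.06%. The call of KLF15 there rests on 1 read against 12 and was lost with a pseudocount of 10, at -0.56. Of the members, 1 fell in both lines, KLF2, and 0 rose in both, against 4.15% and 4.39% of all genes. The median change of the 10 members with lapatinib was 0.59 in SKBR-3 and 0.29 in BT474m1, and that of all genes 0.05 and 0.07. JQ1 raised KLF2, KLF6 and KLF15 in SKBR-3, against 3.75%, and KLF2 and KLF15 in BT474m1, against 4.81%. It lowered 0 members in SKBR-3 and 1 in BT474m1, where 11.8% of all genes fell in each line. KLF2 and KLF15 were the 2 members raised in both lines, against 1.16% of all genes, and 0 were lowered in both, against 5.31%. KLF15 in SKBR-3 rests on 10 reads against 2 there, with an interval of -0.06 to 5.40 and a change of 0.52 with a pseudocount of 10, which left KLF2 alone in this count.

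With both drugs, KLF3, KLF4, KLF5 and KLF15 rose against DMSO in SKBR-3, against 10.8% of all genes, and KLF10 and KLF15 in BT474m1, against 14.2%. Only KLF15 rose in both lines, against 4.46%. In BT474m1 its change was 1.05 (0.10 to 2.33), on 22 reads against 12, and 0.54 with a pseudocount of 10, which left 0 members in this count. None of the 10 fell at least 2-fold in either line, where 20.8% and 15.3% of all genes did, and 8.93% in both. Adding JQ1 to lapatinib raised KLF2 and KLF15 in both lines, against 1.14% of all genes. The share of genes so raised was 3.22% in SKBR-3 and 5.2% in BT474m1. For KLF15 in BT474m1 this rests on 22 reads against 1, with a change of 3.11, and of 1.11 with a pseudocount of 10. The same addition lowered 0 of the members, against 16.2% and 12.5%, and 6.31% in both. The members that lapatinib had raised in SKBR-3 were thus still raised with both drugs. KLF3, KLF4 and KLF5 changed there by 0.24, -0.03 and 0.38 when JQ1 was added. Adding lapatinib to JQ1 raised KLF4, KLF5 and KLF15 in SKBR-3, against 9.79%, and KLF10 and KLF11 in BT474m1, against 12.4%. No member rose in both lines in this contrast, against 3.6%. It lowered KLF2 in both lines, against 3.95% of all genes, with 12.3% lowered in SKBR-3, and KLF15 in BT474m1, against 7.27%, although the change of KLF15, -1.21, was -0.84 with a pseudocount of 10 and so under 2-fold. The comparisons share libraries, so that these counts are not independent of each other.

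Both lines were then fitted in limma, with line and treatment as terms over the 8 libraries and p-values adjusted over the 14429 genes, a test chosen after the data had been examined. The spread of a gene in this fit comes from the difference in response between the lines, on 3 residual degrees of freedom. Empirical Bayes draws it toward the spread of genes of like level, with 4.02 prior degrees of freedom. A gene that answered a drug in 1 line alone thus tends to have a larger error. KLF13 was higher with both drugs than with DMSO, by 0.84 with a standard error of 0.17 and an adjusted p of 0.0183, where 7.52% of all genes were higher and 10.9% lower past an adjusted p of 0.05. KLF2 was lower with both drugs than with JQ1 alone, with a change of -2.41, a standard error of 0.42 and an adjusted p of 0.0293, where 1.47% of all genes were higher and 2.79% lower. These were the only members past that threshold in the 5 contrasts, and neither passed it with no filter on low values or with line left out of the model.

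The other changes of KLF2 missed it. With JQ1 against DMSO KLF2 changed by 2.41, with a standard error of 0.42 and an adjusted p of 0.0897 in limma. In this contrast 0.0139% of all genes were higher and 0.0416% lower past the threshold, and 5.32% and 9.93% at an unadjusted p under 0.05, among them KLF2 and KLF6 higher and KLF11 lower. With lapatinib against DMSO the adjusted p was 0.0741 for KLF2, with a change of -1.68, and 0.0691 for KLF13, with one of 0.67. Past the threshold there were 1.73% of all genes higher and 2.92% lower. At an unadjusted p under 0.05 stood KLF2, KLF9 and KLF13, against 12.8% of all genes higher and 10.5% lower. For both drugs against lapatinib KLF2 changed by 1.68, with an adjusted p of 0.126. Here 0.0347% of all genes were higher and 0.215% lower past the threshold, and 4.95% and 12.4% at an unadjusted p under 0.05, among them KLF2 alone of the members. KLF3, KLF4, KLF5 and KLF10, which passed 2-fold with lapatinib in 1 line, had adjusted p-values of 0.282 to 0.595 in that contrast.

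**Figure D3:**
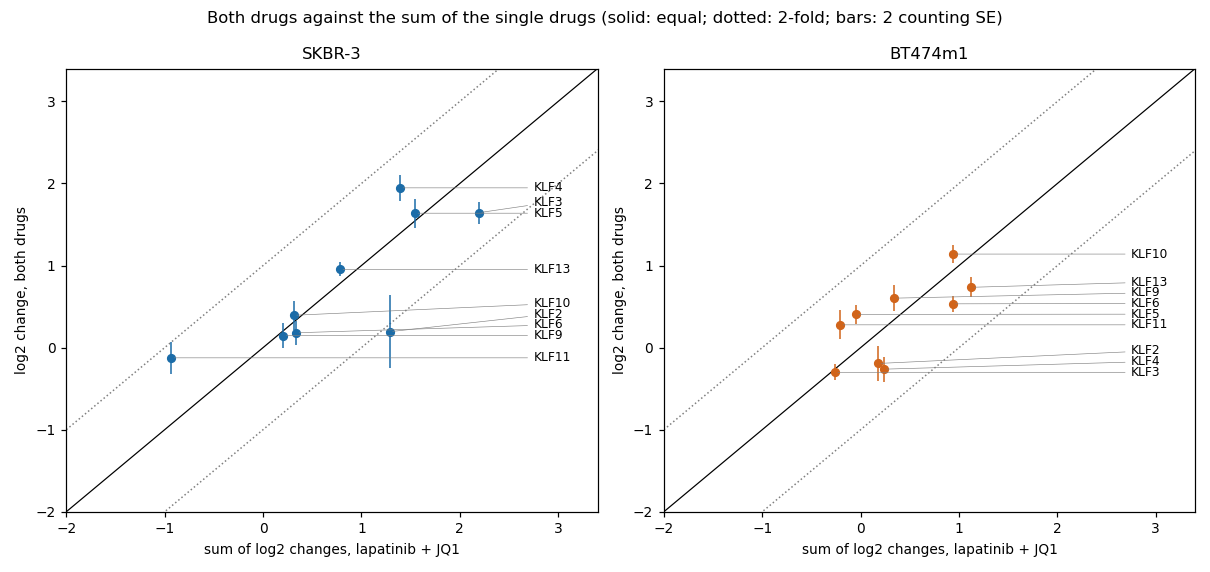
Log2 change with both drugs (vertical axis) against the sum of the log2 changes with lapatinib and JQ1 (horizontal axis) for 9 factors, KLF15 left out, in SKBR-3 and BT474m1. The solid line marks equality, dotted lines mark 2-fold and bars are 2 counting standard errors. KLF2 in SKBR-3 lies 2-fold below the sum and the others lie within the dotted lines.

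Set against the sum of the single drugs, KLF2 in SKBR-3 was the only member at least 2-fold below, against 7.58% of all genes kept there and 4.73% in BT474m1. No member lay at least 2-fold above the sum, against 3.90% and 4.72%. KLF11 in SKBR-3 lay above it by 0.81, with a counting standard error of 0.0961, since the change was -0.12 (-0.25 to 0.00) with both drugs and the sum was -0.93. KLF4 departed by 0.55 in the former line and -0.50 in the latter, and KLF3 by -0.55 and -0.04.

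**Figure D4:**
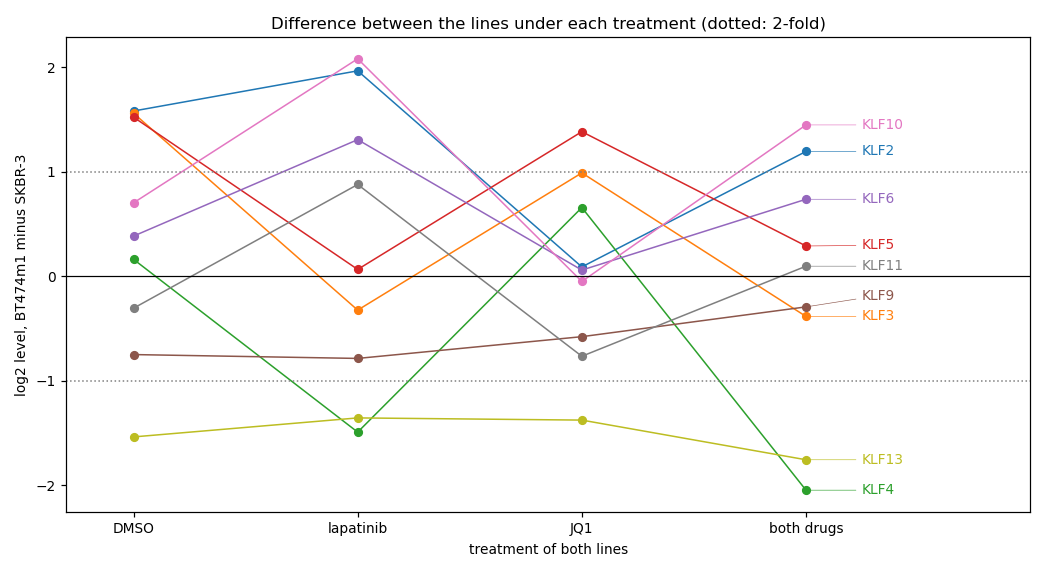
Log2 level in BT474m1 minus that in SKBR-3 under each treatment for 9 factors, KLF15 left out, with dotted lines at 2-fold. KLF3 and KLF5 go from 1.56 and 1.52 with DMSO to -0.32 and 0.07 with lapatinib, KLF2, KLF6 and KLF10 lie within 0.09 of 0 with JQ1, and KLF13 stays between -1.35 and -1.76.

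The lines also differed without drug. With DMSO, KLF2, KLF3, KLF5 and KLF15 were at least 2-fold higher in BT474m1, against 26.8% of all genes, and KLF13 was at least 2-fold lower, against 15.6%. For KLF15 this rests on 12 reads against 2, with an interval of -0.18 to 5.18 and a difference of 0.45 with a pseudocount of 10. Together 5 of the 10 were apart, against 42.4%. With JQ1, 3 of the 10 members were at least 2-fold apart, KLF5, KLF13 and KLF15, against 44.4% of all genes. With lapatinib 6 were, against 45.9%, namely KLF2, KLF4, KLF6, KLF10, KLF13 and KLF15. KLF2, KLF6 and KLF10 differed between the lines by 0.09, 0.06 and -0.05 with JQ1. With both drugs 5 were apart, KLF2, KLF4, KLF10, KLF13 and KLF15, against 48.6%. Differences between the lines cannot be told apart from how the lines were handled, since it is not given whether they were sequenced together.

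The response to a drug was also set between the lines, as the log2 change in one minus that in the other. These differences were not tested. With lapatinib KLF10 and KLF11 were at least 1 more positive in BT474m1, against 12.5% of all genes, and KLF3, KLF4, KLF5 and KLF15 in SKBR-3, against 9.45%. With JQ1 none was so in BT474m1, against 8.84%, and KLF2 was in SKBR-3, against 7.11%. With both drugs against DMSO none was so in BT474m1, against 19.7%, and the same 4 members as with lapatinib were in SKBR-3, against 10.6%. For JQ1 added to lapatinib, KLF15 was more positive in BT474m1, against 13%, and no member in SKBR-3, against 7.44%. That difference of 1.31 had a counting standard error of 1.52 and rests on 1 read with lapatinib in BT474m1. With a pseudocount of 10 its direction turned, since the change of KLF15 was then 1.11 in BT474m1 and 1.38 in SKBR-3. For lapatinib added to JQ1, KLF2 and KLF10 were more positive in BT474m1, against 16.4%, and KLF3, KLF4, KLF5 and KLF15 in SKBR-3, against 8.03%. Some members moved in opposite directions in the lines, with counting intervals on either side of 0 and changes at least 1 apart. These were 4 of the 10 with lapatinib (KLF3, KLF5, KLF11 and KLF15), against 4.63% of all genes, 2 with both drugs against DMSO (KLF3 and KLF4), against 7.25%, and 3 for lapatinib added to JQ1 (KLF3, KLF4 and KLF15), against 5.08%. None did so with JQ1 against DMSO, against 2.04%, or for JQ1 added to lapatinib, against 3.42%. Counting intervals narrow with more reads, so genes with many reads meet this rule more readily, and also with small changes. Such changes were -0.19 for KLF5 in BT474m1 and -0.23 for KLF11 in SKBR-3 with lapatinib. KLF4 in BT474m1 changed by -0.17 for lapatinib added to JQ1. The shares of all genes include genes with few reads and are not matched to the members.

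**Figure D5:**
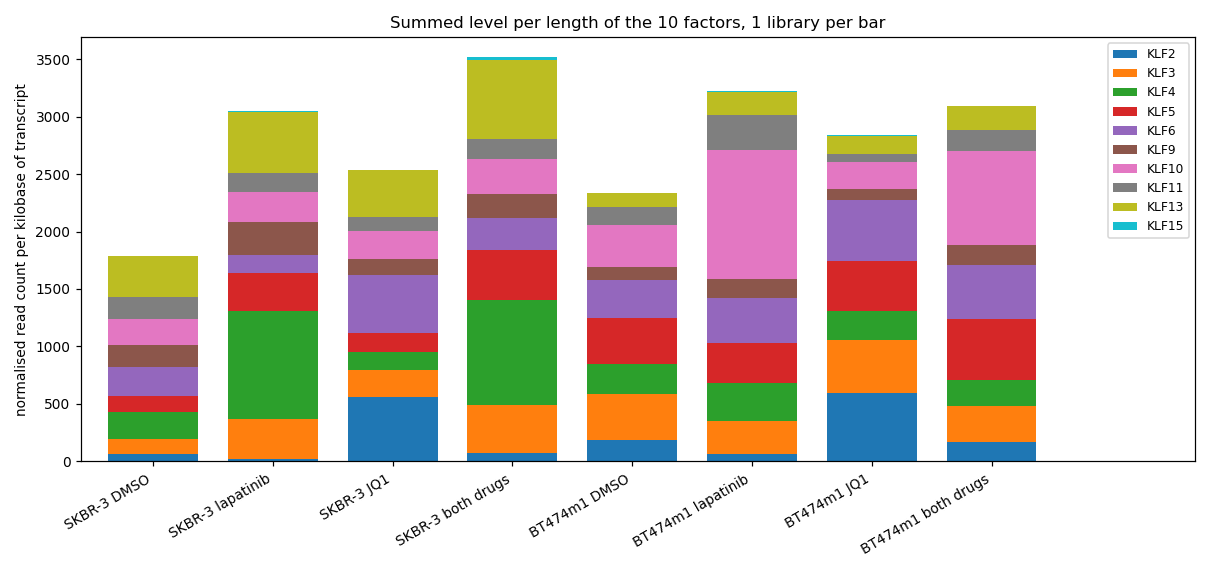
Normalised read count per kilobase of canonical transcript, stacked over the 10 factors, 1 library per bar. The largest segment is KLF13 with DMSO, KLF4 with lapatinib or both drugs and KLF2 with JQ1 in SKBR-3, and KLF5, KLF10 and KLF2 in BT474m1.

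Levels of different members were compared per kilobase of the canonical GENCODE transcript. The summed level of the 10 was 1786 per kilobase under DMSO, 3050 under lapatinib, 2535 under JQ1 and 3515 under both drugs in SKBR-3, and 2338, 3218, 2841 and 3094 in BT474m1. It was lowest with DMSO in both lines. The member with the highest level per length differed between libraries. In SKBR-3 with DMSO it was KLF13, with 19.95% of the sum, followed by KLF6 with 14% and KLF4 with 13.2%. With lapatinib KLF4 took 30.6% and with both drugs 26.0%. In BT474m1 with DMSO, KLF5 with 17.1% and KLF3 with 16.9% were close, and KLF10 took 34.8% with lapatinib and 26.4% with both drugs. With JQ1 KLF2 was the highest in both lines, with 22.1% in SKBR-3 and 21.0% in BT474m1, from 3.50% and 8.03% with DMSO. KLF15 was the lowest of the 10 in each of the 8 libraries, at 0.624% or less.

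Of 17 other genes of the family and of its relatives, the SP factors, 16 were in the tables and 10 were kept. Lapatinib raised 1 of the 10 in each line, near the 11.1% and 14% of all genes that rose. This was KLF8, which went from 410.9 to 832.3 in SKBR-3, by 1.02, and from 678 to 1722 in the other line, by 1.34. It lowered SP6 alone, and only in BT474m1, by -1.28, where 8.06% of all genes fell. KLF8 is a repressor of the same CtBP group as KLF3. JQ1 raised SP4 alone, in BT474m1, by 1.28, and lowered none in either line, where 3.75% and 4.81% of all genes rose and 11.8% fell in each. Both drugs against lapatinib raised SP4 in both lines, from 147 to 508.3 and from 218.1 to 682.8, by 1.78 and 1.64, against 1.14% of all genes. The same contrast lowered KLF12 in SKBR-3, by -1.17, and SP9, which was scarce, in BT474m1, by -2.03, where 16.2% and 12.5% of all genes fell. SP1, a ubiquitous activator, stood between 1583 and 4878 in the 8 libraries. KLF1, KLF14 and KLF17 were at 1.43 or lower.

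Among the 11 genes of KLF cofactors and ubiquitin ligases, all kept, lapatinib raised 1 in each line, the acetyltransferase gene KAT2B in SKBR-3 by 1.06 and the corepressor gene SIN3B in BT474m1 by 1.28, and lowered none. The shares of all genes that rose were 11.1% and 14%, and those that fell 9.44% and 8.06%. JQ1 changed none of the 11 at least 2-fold, where 3.75% and 4.81% of all genes rose and 11.8% fell in each line. Of the 19 known upstream regulators, 18 were kept. Lapatinib raised 4 in SKBR-3 (MEF2D, FOXO3, ESR1 and THRB), where 11.1% of all genes kept rose, and lowered none, with a median change of 0.55 against 0.05 for all genes. In BT474m1 it raised 5 (FOXO1, FOXO3, NR3C1, ESR1 and PGR), where 14% of all genes rose, and lowered none, with a median of 0.57 against 0.07. ESR1 in SKBR-3 was scarce, at 4.29 units with DMSO and 16.9 with lapatinib. FOXO3 was the one raised in both lines with a value of 100 or more in each. It went from 829.6 to 2342 and from 3318 to 7360, by 1.50 and 1.15, with the caution that a near-identical copy, FOXO3B, can share its reads. With both drugs FOXO3 stood at 5365 and 10845.5, above DMSO by 2.69 and 1.71 and above JQ1 alone by 2.18 and 1.33. JQ1 raised none of the 18, against 3.75% and 4.81% of all genes. It lowered 0 in SKBR-3 and ESR1, PGR and TGFB1 in BT474m1, with changes of -2.14, -1.77 and -1.85, against 11.8% in each line. NR3C1, the glucocorticoid receptor that induces KLF9 and KLF15, was higher with both drugs than with JQ1, by 1.26 and 1.18.

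Of 15 known target genes, 13 were kept. JQ1 raised CDKN1A, a cell cycle inhibitor activated by KLF4 and KLF6, from 154.6 to 604.4 in SKBR-3, by 1.96, and from 176.8 to 551.7 in the other line, by 1.64. With both drugs CDKN1A stood at 370.8 and 105.5, and with lapatinib at 214.4 and 60.8. CCND1, activated by KLF5 and repressed by KLF4, fell with both drugs from 4989 to 939.6 and from 6358 to 706.3, with changes of -2.41 and -3.17. Both drugs against DMSO raised 2 of the 13 and lowered 5 in SKBR-3, where 10.8% of all genes rose and 20.8% fell. In BT474m1 they raised 2 and lowered 2, where 14.2% rose and 15.3% fell. JQ1 lowered 3 genes of the list in SKBR-3, NOS3, MAOA and LGALS3, and 1 in BT474m1, THBD, all named here after their values were seen. NOS3, the endothelial nitric oxide synthase and a known target that KLF2 activates in endothelium, went from 123.3 to 5.95 in SKBR-3, by -4.16, and from 3.10 to 4.39 in the other line, by 0.39. THBD, or thrombomodulin, another such target, was scarce. It went from 18.9 to 2.90 in BT474m1, by -2.35, and from 1.43 to 1.93 in SKBR-3. With both drugs NOS3 stood at 2.43 in SKBR-3 and THBD at 1.17 in BT474m1. MAOA and LGALS3 stood at 5.01 and 4.29 with DMSO in SKBR-3, and changed by -1.39 and -1.21. The list as a whole had a median change with JQ1 of -0.49 in SKBR-3, where that of all genes was -0.08, and of 0.21 in BT474m1, where it was -0.06. The mean of the list was -0.51 and 0.0014, so the shift in BT474m1 was not seen in the mean. It had 1 gene raised in each line, where 3.75% and 4.81% of all genes rose, and 11.8% of all genes fell in each.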

How the data were processed

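RNA of 8 cultures was sequenced. The deposited tables give a signal for each of 20531 genes, namely RSEM read estimates that the authors scaled to an upper quartile of 1000 over genes with reads. The labels name hg19, Picard 1.88 and SAMtools 1.2, while the study's methods name hg38, STAR and Salmon, so the aligner and annotation of these tables are uncertain. The labels name a stranded and an unstranded library kit, so it is uncertain whether strand was used.

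The worth of 1 read was found in each table from the step that low values share. With it 83.9% to 85.2% of the values above 0 were whole reads within 0.02, and depths were 21420113 to 34112379 reads. Genes that reached 10 units in some library were kept (14429, with 6102 removed). The pseudocount of 1 is that of the study's methods. A gene was called changed within a line at 2-fold, with no test, since each group held 1 library. Over both lines log2(value + 1) was fitted in limma 3.58.1 (R 4.3.3) with line and treatment as terms, empirical Bayes with a trend and Benjamini-Hochberg adjustment over the genes kept. This fit was added after the data had been examined. Intervals (95%, Clopper-Pearson on recovered reads) carry no pseudocount and cover counting error only. A standard error of a sum or departure is that of the log of the reads. Both methods were tested on simulated data that met their assumptions. These were Poisson counts for the intervals, and independent noise of equal spread with no difference in response between the lines for the fit. They check the code and not the spread between real cultures. Python 3.11.15 was used with scipy 1.17.1, numpy 2.4.6, pandas 2.3.3 and matplotlib 3.10.9. Positions and promoters come from RefSeq (GRCh38.p14) and transcript lengths and overlapping genes from GENCODE 44. They describe the genes and not the reads.

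The genes and lists were chosen with earlier results of these data known. Named are the 10 members, list genes changed at least 2-fold alike in both lines with a value of 100 or more in a library of each contrast, and for each member the nearest gene and nearest member. Other list genes given values were chosen after their values were seen. Alternatives were scaling to equal totals or by the median of ratios, a pseudocount of 10, a filter at 100 or none, calls whose counting interval excludes no change, and the mean of a list.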

Additional observations from a re-analysis of the deposited data

Results flagged for a closer look

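In 9 cases a member moved in opposite directions in the lines, with counting intervals on either side of 0 and a difference of at least 1 on the log2 scale. The differences are the change in BT474m1 minus that in SKBR-3, and none was tested. A fit with a term for each treatment in each line leaves no residual over 8 libraries. KLF3 differed by -1.88 with lapatinib and by -1.94 with both drugs against DMSO, and by -1.37 for both drugs against JQ1. KLF4 differed by -2.21 with both drugs against DMSO and by -2.71 for both drugs against JQ1. KLF5 differed by -1.46 with lapatinib, and KLF11 by 1.18 with lapatinib. KLF15 differed by -4.80 with lapatinib and by -4.14 for both drugs against JQ1, where the values rest on 1 to 81 reads. By the same rule 4.63% of all genes kept moved in opposite directions with lapatinib, where 4 of the 10 members did, 7.25% with both drugs against DMSO, where 2 did, and 5.08% for both drugs against JQ1, where 3 did. With JQ1 against DMSO and for both drugs against lapatinib 0 members did, against 2.04% and 3.42%. These shares include genes with few reads, whose counting intervals are wide. Some of the changes behind the 9 cases were small, such as -0.19 for KLF5 in BT474m1 and -0.23 for KLF11 in SKBR-3 with lapatinib.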

How the results depend on the processing

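The labels give no replicate numbers within a group, and the lines served as the replicate block of the test over both lines. Without this block 0 members passed, from 1 with both drugs against DMSO (KLF13) and 1 against JQ1 (KLF2). With no filter on low values both counts were also 0. The other 56 of 60 recomputed counts of that test were unchanged. No member that had changed at least 2-fold reversed under any alternative, and 141 of 152 recomputed counts of changed members kept within 1.5 times. With a pseudocount of 10, the members raised by JQ1 in SKBR-3 went from 3 to 1, those lowered by lapatinib in BT474m1 from 2 to 1, those raised by both drugs against DMSO in BT474m1 from 2 to 1 and those lowered against JQ1 there from 2 to 1. A filter at 100 removed KLF15 alone among the members. It left 1 member raised by both drugs against lapatinib in SKBR-3, and in BT474m1 1 lowered by lapatinib, 1 raised by JQ1, 1 raised by both drugs against DMSO, 1 raised by both drugs against lapatinib and 1 lowered by both drugs against JQ1, from 2 in each case. With equal totals 0 members lay 2-fold below the sum of the single drugs in SKBR-3, from 1, as KLF2 went to -0.98. Equal totals moved the median change of all genes with JQ1 in SKBR-3 from -0.08 to -0.22, and the median of ratios moved that between the lines with DMSO from 0.21 to 0.06. Of the members raised in both lines, a pseudocount of 10 left 1 with JQ1, from 2, and 0 with both drugs against DMSO, from 1. A filter at 100 left the same counts, and 1 for both drugs against lapatinib, from 2. In all, 10 of 637 recomputed member values crossed 2-fold, 5 of them of KLF15 with a pseudocount of 10. Depth limits KLF15, since 3 reads are 1.41 to 2.30 units.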

Other observations

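For each member, the gene of nearest profile was sought among 11749 genes that reached 100 in a library (11750 for KLF15). Likeness was the root mean square difference of the 8 log2 values, each centred on the mean of its line. The nearest gene to KLF2 was the histone gene HIST1H2BJ, at 0.312. It stood at 76.6 under DMSO, 16.9 under lapatinib, 903.6 under JQ1 and 139 under both drugs in SKBR-3, and at 68.4, 26.5, 147.9 and 58.3 in BT474m1. The other nearest genes were CCDC92 to KLF3 (0.0990), CCT6B to KLF4 (0.202), ATP8B1 to KLF5 (0.113), CYTSB to KLF6 (0.107), MUM1 to KLF9 (0.0771), PHF21B to KLF10 (0.111), MLLT6 to KLF11 (0.105), C4orf14 to KLF13 (0.0617) and MAP2 to KLF15 (0.588). PHF21B was listed at 0 in the 4 SKBR-3 libraries. These distances describe 8 libraries and no test was made.

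Among the members themselves, the closest pairs were KLF3 with KLF5 at 0.261, KLF9 with KLF13 at 0.297 and KLF10 with KLF11 at 0.303. Of the genes searched, 0.587% were nearer to KLF3 than KLF5 was, and 1.70% nearer to KLF5 than KLF3 was. For KLF10 and KLF11 the shares were 0.528% and 0.579%. For KLF9 and KLF13 they were 13.8% and 18.2%, so many genes had profiles closer to either than the other member. The nearest member to KLF2 was KLF6, at 1.11, and 1.80% of the genes searched were nearer. The pair farthest apart was KLF2 with KLF4, at 2.16. The gene nearest to KLF15, MAP2, stood at 22.9, 193.7, 162.4 and 718 in SKBR-3 and at 140, 116.9, 939.6 and 760.9 in BT474m1 with DMSO, lapatinib, JQ1 and both drugs.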
